A study of Homo sapiens with 18 samples.

Results

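The genes CD86, CD80, CD83, CD274 and PDCD1LG2 encode surface proteins through which one cell presents costimulatory or inhibitory signals to a T cell. They were chosen by name, and every probe that the scanner files assign to one of them was taken, which gave 8 probes of 5 genes among 41000 probes with 30484 gene names. The rise of CD86 after SM30 was known when the genes were chosen, so the values of all of them after SM30 are given below as a description with no test. The genes do not form 1 response in these cells. CD86 was high in SM30-treated cells on 1 of its 2 probes, and CD80 and PDCD1LG2 were well above background on 0 arrays and on 1. CD83, and CD274 on 1 of its 2 probes, were called lower in AS30 controls at 22 h than at 3 h, though not in every fit. That comparison was added after the values had been seen. On the same CD274 probe the SM30 controls, also at 3 h, lay within the range of the 22 h controls.

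RNA came from A549 cells, an established human lung adenocarcinoma line of epithelial type, and was hybridised to 18 one-colour Agilent arrays. Cells were exposed for 2 h, in medium without serum, to Ludox NPs of amorphous silica, either SM30 with a diameter of 9 nm or AS30 with a diameter of 18 nm, and then left in medium with serum. The 6 groups of 3 arrays, with replicates A, B and C, were SM30 at 3 h of recovery, AS30 at 3 h, AS30 at 22 h, and for each of them controls that went through the same medium changes without NPs. No transgene or gene deletion was used, and a single cell line in monolayer, with no immune cells added, was the only model. The comparisons address how size of the NPs and recovery time bear on transcription.

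CD86 and CD80 are the ligands of CD28, which costimulates T cells, and of CTLA-4, which restrains them. CD83 is a surface glycoprotein best known as a marker of mature dendritic cells. CD274 (PD-L1) and PDCD1LG2 (PD-L2) bind PD-1 on T cells and dampen their response, and CD274 is also made by many epithelial and tumour cells. CD86 and CD80 are mainly known from professional antigen-presenting cells rather than from lung epithelium.

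On every array 51.9% to 72.4% of the spots that are not controls were well above background, a flag set by the scanner software, and 0 spots were saturated. The share differed between groups. It was 51.9% to 58.4% in the AS30 controls at 22 h and 52.4% to 61.9% in those at 3 h. In AS30-treated arrays it was 56.9% to 67.1%, and in SM30 arrays and their controls 65.5% to 72.4%. Counts of arrays by this flag carry that difference. The arrays lay on 5 slides. Array A of SM30 shared a slide with the 3 SM30 controls, the AS30 arrays at 3 h shared none with their own controls, and the AS30 arrays at 22 h shared 1 with control C. AS30 at 3 h can thus not be set against its own controls within a slide, and treatment and slide change together in that comparison. All 5 epithelial markers (KRT8, KRT18, KRT19, EPCAM, CDH1) were well above background on all 18 arrays. Of 24 immune cell markers listed 22 were on the array, of which 5 (CD14, CD3E, CD79A, FCER1G and TYROBP) were well above background on all 18 arrays and 7 on 0, among them AIF1, CD3D, CD53, CD74, HLA-DRA and MS4A1. PTPRC, the pan-leukocyte marker CD45, was well above background on 5 arrays.

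Detection divided the 8 probes clearly. Well above background on all 18 arrays were the CD86 probe A_24_P131589 and the CD83 probe A_23_P70670. The CD274 probes A_23_P256487 and A_23_P338479 were so on 17 and 13 arrays. The second CD86 probe, A_23_P109988, and both CD80 probes, A_24_P320033 and A_23_P155632, were so on 0 arrays, and the PDCD1LG2 probe A_23_P94412 on 1. After removal of probes with more than 33% missing spots, 4 probes of 3 genes could be fitted, namely the first CD86 probe, the CD83 probe and both CD274 probes.

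**Figure D1:**
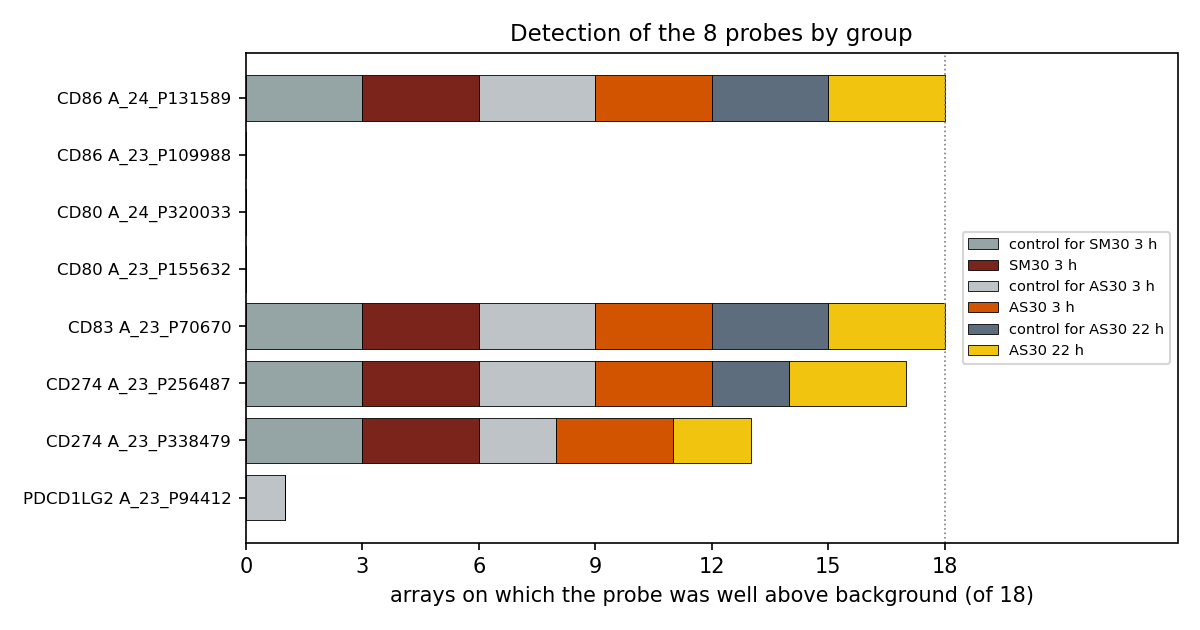
Number of arrays, of 18, on which each of the 8 probes was well above background, stacked by group with at most 3 arrays each. The CD86 probe A_24_P131589 and the CD83 probe reached 18, while the other CD86 probe and both CD80 probes had 0.

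Both CD86 probes are assigned by the files to the same transcript, NM_006889, on chromosome 3 of build hg18. Probe A_24_P131589 lies at chr3:123321936-123321995 and probe A_23_P109988 at chr3:123310864-123310923, both on the plus strand, with 11072 bp between their starts. Which exon or UTR each probe falls in was not analysed here. For orientation, the 250 bases before each annotated start of CD86 are shown, from RefSeq on build GRCh38.p14, which is another build than that of the probes. Capitals mark the stretches that hold an NF-kappaB consensus on either strand.
CD86 start 1, chr3:122055112-122055361, plus strand: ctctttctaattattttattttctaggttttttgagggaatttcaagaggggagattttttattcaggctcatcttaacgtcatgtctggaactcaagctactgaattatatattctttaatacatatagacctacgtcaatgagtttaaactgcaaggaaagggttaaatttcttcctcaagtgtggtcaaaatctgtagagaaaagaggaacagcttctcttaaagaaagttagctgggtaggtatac
CD86 start 2, chr3:122077534-122077783, plus strand: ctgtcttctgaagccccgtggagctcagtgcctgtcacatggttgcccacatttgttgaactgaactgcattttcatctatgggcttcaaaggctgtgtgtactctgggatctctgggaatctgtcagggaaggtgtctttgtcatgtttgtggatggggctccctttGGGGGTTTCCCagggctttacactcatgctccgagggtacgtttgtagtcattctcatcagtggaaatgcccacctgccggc

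A promoter was found for 4 of the 5 genes, with 6 starts in all. The letters of the AP-1 motif TGANTCA and of the GAS motif TTCNNNGAA were also searched on both strands, and the motifs did not overlap one another in these windows. The first CD86 window held none of the 3 motifs, and the second held overlapping NF-kappaB matches that begin 82 and 81 bases before the start. Among 35114 windows of the same length, 9.96% held an NF-kappaB match, 6.57% an AP-1 match and 6.57% a GAS match. A match is a run of letters and not a shown binding site.

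After SM30, the CD86 probe A_24_P131589 had processed signals of 15883.8 in array A, 30048.4 in B and 33320 in C. The same probe had 1388.2 in control A, 832.9 in B and 516.7 in C. The lowest treated array thus lay far above the highest control array, and the groups did not overlap. In this direction 19.2% of all probes had groups that did not overlap. On the quantile-normalized log2 scale, on which the further comparisons were made, the mean was 13.84 ± 0.566 (SD, n = 3) after SM30 and 8.931 ± 0.153 (SD, n = 3) in the controls. The log2 ratios of pairs A, B and C were 4.09, 5.33 and 5.31, which are 17.1-fold, 40.3-fold and 39.6-fold, with a mean of 4.91 ± 0.71 (SD, n = 3), or 30.1-fold. Within the slide that array A shared with the 3 controls the log2 difference was 4.26.

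The second CD86 probe showed nothing of this. Its processed signal ran from 3.5 to 4.6 after SM30 and from 4.8 to 8.6 in the controls, and over all 18 arrays from 3.5 to 15. The log2 ratios of the 3 SM30 pairs were -0.01, 0.02 and 0.04 with all spots kept. No array of any group had it well above background or positive, so no level and no fold can be given for it. Such a split between probes is not common on this array: of 4115 RefSeq transcripts that had at least 2 probes and 1 of them well above background on all 18 arrays, 134 (3.26%) had another on 0 arrays. CD86 is 1 of these, and a rise of CD86 transcripts here rests on the single probe A_24_P131589.

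**Figure D2:**
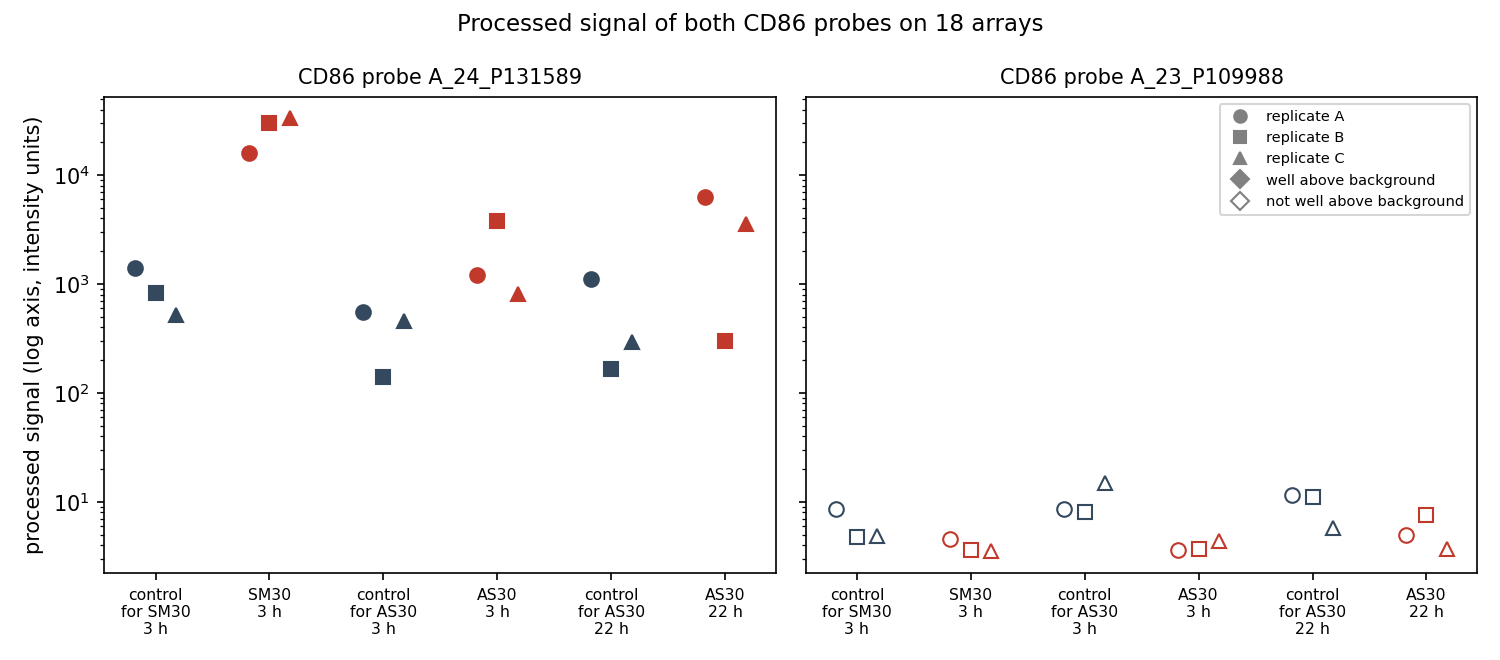
Processed signal (log axis) of both CD86 probes on each of the 18 arrays by group, with a marker shape for each replicate letter, treated arrays in red and controls in dark blue, and open markers where the probe was not well above background. Probe A_24_P131589 lay at 15883.8 or more in the SM30 arrays and at 1388.2 or less in their controls, and probe A_23_P109988 stayed at 15 or less throughout.

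AS30 gave smaller and more scattered values of CD86. At 3 h of recovery the processed signals of probe A_24_P131589 were 1205.1 (A), 3814.3 (B) and 807.6 (C), against 551.8, 139 and 460.9 in the controls of the same letters. The 3 treated arrays lay above the 3 controls also after normalization, with means of 11.1 ± 1.21 (SD, n = 3) and 8.329 ± 1.29 (SD, n = 3), and 13.2% of all probes measured on these arrays had treated arrays above all controls in the same way. The log2 ratios were 1.62, 5.63 and 1.06, so that pair B, whose control was the dimmest of all arrays, was much larger than the others. Their mean of 2.77 ± 2.49 (SD, n = 3), or 6.82-fold, did not pass the threshold of 0.05 in limma's moderated test (SE 0.81, unadjusted p = 0.0084, adjusted p = 0.099), in which 2.52% of all probes were called. Over the 19 alternatives the mean ran from 1.34 to 5.50 and the limma adjusted p from 0.021 to 0.39. Without pair B the mean was 1.34 (limma adjusted p = 0.39), without pair C 3.63 (0.046), with slide as a fixed block 5.50 (0.36), and with each treated array set against the mean of the 3 controls 2.77 (0.021).

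At 22 h after AS30 the processed signals of this CD86 probe were 6330.7 (A), 301.1 (B) and 3561.9 (C), against 1112.7, 164.6 and 294.6 in the controls. Treated array B lay below control A, so the groups overlapped, although each pair was higher in the treated array. The log2 ratios of 2.21, 0.79 and 3.31 had a mean of 2.10 ± 1.26 (SD, n = 3), or 4.29-fold, which did not pass the test (SE 0.81, unadjusted p = 0.031, limma adjusted p = 0.17), where 3.58% of all probes were called. The log2 difference was 2.46 within the slide shared with control C. The ratio at 22 h minus that at 3 h was -0.67 (SE 1.1, limma adjusted p = 0.82), and 0.0285% of probes were called in that comparison.

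On probe A_24_P131589 CD86 was thus higher in the treated array of 6 of 6 AS30 pairs, as were 9.16% of the 23900 probes measured in all of them. By group mean the order was SM30, AS30 at 22 h, AS30 at 3 h, controls at 22 h, SM30 controls and AS30 controls at 3 h. The SM30 arrays lay above all others, and from the second place on each group overlapped the next in this order. The mean log2 ratio after SM30 exceeded that after AS30 at 3 h by 2.14, which is a description because SM30 chose the gene. Controls at 22 h and at 3 h of the AS30 experiment differed by 0.89 (SE 0.98, limma adjusted p = 0.72). Within 1 slide, control A at 22 h lay above the mean of the 3 controls at 3 h by 2.44. Untreated arrays on 1 slide thus differed about as much as the 2.46 after AS30 at 22 h. Without control A at 22 h the difference between the controls was 0.12.

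The summed normalized signal of the 22 immune cell markers did not separate treated from control arrays. It ran from 2040 to 2870 after SM30 and from 2130 to 2760 in the SM30 controls. It ran from 8550 to 11300 after AS30 at 3 h against 3710 to 12500 in controls, and from 4970 to 6710 after AS30 at 22 h against 4840 to 9930. Of the 9 immune cell markers measured after SM30, 2 were called higher and 0 lower, against 4.35% and 3.13% of all probes. The median log2 ratio of the 9 was -0.15 and the lowest was -0.58. After AS30 the median of the 9 was 0.62 at 3 h, with a lowest value of 0.17. At 22 h the median was -0.25 and the lowest value -0.63. ITGAX, the integrin CD11c of myeloid cells, rose after SM30 by 2.71 (log2 ratio, SE 0.27, limma adjusted p = 0.0021) and was at least 4.15-fold and at least 7.18-fold higher after AS30 at 3 h and 22 h (normalized log2 means 6.81 against 4.76 and 7.68 against 4.83, limma adjusted p = 0.014 both times), and its second probe was well above background on 0 arrays. CSF1R, the receptor of macrophage colony-stimulating factor, rose after SM30 by 1.41 (SE 0.17, limma adjusted p = 0.0086). It was not called after AS30 at 3 h (0.87, limma adjusted p = 0.058), and after AS30 at 22 h it was measured in 1 pair. Of the 5 epithelial markers, only KRT19 was called after AS30 at 22 h, as higher (1.21, limma adjusted p = 0.023). The others went the other way, with KRT8 at -0.04, KRT18 at -0.09, EPCAM at -0.61 and CDH1 at -1.46, and the median of the list was -0.09. The part of other cell types in the CD86 values was not tested.

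The probes whose normalized signal over the 18 arrays was most like that of the CD86 probe were sought among 27861 candidates. The 5 named genes with the highest Pearson r were VPS18 (0.965), which acts in tethering of endosomes and lysosomes, PPP6R1 (0.958), a regulatory subunit of protein phosphatase 6, LRRC2 (0.955), NFKBIZ (0.929), a nuclear inhibitor protein of the NF-kappaB family, and RPA4 (0.913), a relative of the single-strand DNA binding subunit RPA2. Their mean log2 ratios after SM30 were 3.19, 3.73, 4.69, 1.37 and 4.12 in that order. The 18 points of each correlation share the 6 groups and 5 slides and the 3 SM30 arrays stand far from the rest, so r is a description only. Of these 5 genes only LRRC2 and PPP6R1 had other probes, and as with CD86 those did not follow. The other LRRC2 probes were well above background on 0 and 1 arrays. The other PPP6R1 probe, well above background on all 18, had a log2 ratio after SM30 of -0.13 and an r of -0.29 with CD86. Within the genes under study, CD86 had an r of 0.13 with CD83 and of -0.03 and 0.21 with the CD274 probes, whereas CD83 had 0.46 and 0.62 with them.

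CD80, the other ligand of CD28 and CTLA-4, was well above background on 0 arrays with either probe. The transcript is NM_005191 on the minus strand of chromosome 3 (hg18), with probe A_24_P320033 at chr3:120726374-120726433 and probe A_23_P155632 at chr3:120738686-120738745. The first had processed signals of 6 to 21.1 over the 18 arrays and was positive, that is significantly above local background, on 12 of them. The second had 3.8 to 16.3 and was positive on 1. The SM30 arrays, at 6 to 21.1 and 4.1 to 10.2, overlapped their controls, at 12.8 to 18.7 and 4.9 to 9.5, on both probes. A level below the reach of these probes is not shown to be absent.

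CD83 was well above background everywhere and, of the 4 measured probes, had the smallest spread among SM30 arrays. Its probe A_23_P70670 lies at chr6:14244668-14244727 (hg18, plus strand, transcript NM_004233). After SM30 the normalized log2 signals were 8.78, 8.87 and 8.77, against 8.23, 8.45 and 8.30 in the controls. The groups did not overlap, as was the case in this direction for 19.2% of all probes, and the log2 ratios of 0.54, 0.42 and 0.46 had a mean of 0.47 ± 0.07 (SD, n = 3), or 1.39-fold, as a description. The difference within the slide of array A was 0.45.

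After AS30, CD83 did not move in 1 direction. At 3 h its log2 ratios were -0.19, -0.50 and 0.50 (mean -0.06, SE 0.23, limma adjusted p = 0.89). At 22 h they were 0.47, -0.60 and 0.25 (mean 0.04, SE 0.23, limma adjusted p = 0.94). The groups overlapped at both times, and neither result passed the test.

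The larger difference in CD83 was between the AS30 experiment's arrays at 3 h and at 22 h, treated and control. The AS30 controls had normalized log2 signals of 9.02, 9.03 and 8.03 at 3 h and of 7.11, 7.79 and 7.27 at 22 h. Every array at 3 h lay above every array at 22 h, control C at 3 h being the nearest. In a limma model with all 6 groups and no pairing, the controls at 22 h were lower by 1.31 on the log2 scale (22 h minus 3 h -1.31, SE 0.24, limma adjusted p = 0.015), which is 2.48-fold higher at 3 h. Of all probes, 1.3% were called in this comparison, with 0.795% of all probes lower at 22 h, and 6.07% had all 3 h controls above all 22 h controls. The AS30-treated arrays had means of 8.632 ± 0.172 (SD, n = 3) at 3 h and 7.43 ± 0.213 (SD, n = 3) at 22 h. These treated groups lay on different slides, so recovery time and slide cannot be told apart in them, and their difference was not tested. Within 1 slide, control A at 22 h lay below the mean of the 3 controls at 3 h, by -1.59. The call was lost without 3 h control A (-1.15, adjusted p = 0.055 by limma), without 3 h control B (-1.14, 0.060) and with slide as a fixed block (-1.59, 0.055).

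CD274 showed a like difference between the control groups. Probe A_23_P256487 (chr9:5460098-5460157, hg18, plus strand, transcript ENST00000381577) had normalized log2 signals of 7.71, 8.16 and 8.69 in the AS30 controls at 3 h and 6.70, 7.16 and 6.74 at 22 h. The groups did not overlap, as was so in this direction for 6.07% of all probes. The value at 22 h minus 3 h was -1.32 (SE 0.30, limma adjusted p = 0.045), or 2.5-fold higher at 3 h. Control A at 22 h was the 1 array on which this probe was not well above background. Within the slide it lay below the 3 h controls by -1.49.

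The second CD274 probe, A_23_P338479 (chr9:5458310-5458369, transcript NM_014143, 1788 bp from the first), had 6.15, 6.03 and 6.33 at 3 h and 5.04, 5.35 and 5.20 at 22 h. It was well above background on 2 of 3 controls at 3 h and 0 of 3 at 22 h. The means of 6.17 and 5.20 give a ratio of 1.97-fold higher at 3 h (limma adjusted p = 0.15). This is the same direction but did not pass the test. The ratio is no lower bound, as both groups held arrays not well above background. The call of the first probe was lost without 3 h control B (-1.33, limma adjusted p = 0.11) or C (-1.07, 0.058), without 22 h control A (-1.24, 0.082), B (-1.47, 0.067) or C (-1.26, 0.11), and with slide as a fixed block (-1.49, 0.20). Both members called between the controls, CD83 and CD274, were therefore not called together in any fit that left out a control array.

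The SM30 controls, also taken at 3 h, lay apart from the AS30 controls at 3 h. Their CD274 signals on probe A_23_P256487 were 6.94, 7.02 and 7.06, below all 3 AS30 controls at 3 h and within the range of the 22 h controls. Their CD83 signals, with a mean of 8.329 ± 0.112 (SD, n = 3), lay between the means of the AS30 controls at 3 h (8.696 ± 0.574) and at 22 h (7.388 ± 0.356). The difference between both sets of 3 h controls was not tested.

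**Figure D3:**
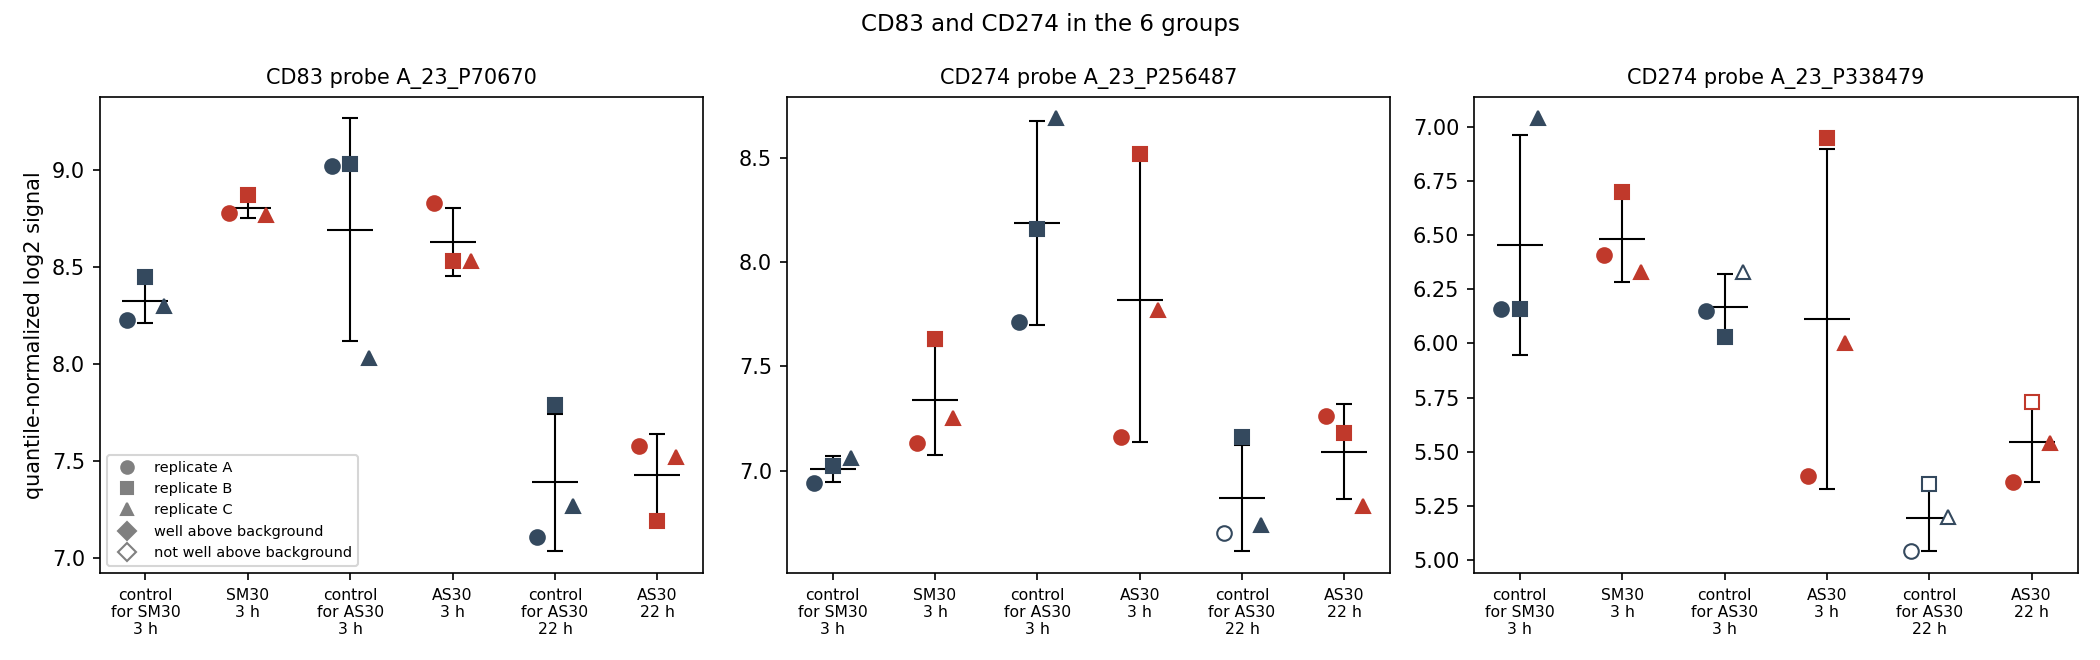
Quantile-normalized log2 signal of the CD83 probe and of both CD274 probes on each array by group, each panel with its own axis, which does not start at 0; black bars are the mean and SD of 3 arrays and open markers are arrays on which the probe was not well above background. CD83 lay at 8.03 or more in all groups at 3 h and at 7.79 or less in both groups at 22 h, and for CD274 (A_23_P256487) the 3 h controls for AS30 stand above those for SM30.

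NPs moved CD274 little. After SM30 the log2 ratios on probe A_23_P256487 were 0.18, 0.61 and 0.19, with a mean of 0.33 ± 0.24 (SD, n = 3). Treated arrays lay above all controls, as for 19.2% of all probes. On probe A_23_P338479 they were 0.25, 0.55 and -0.71, with a mean of 0.03 ± 0.66 (SD, n = 3), and the groups overlapped. These values are a description.

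After AS30 at 3 h the mean log2 ratios of CD274 were -0.37 (SE 0.23, limma adjusted p = 0.35) on the first and -0.06 (SE 0.32, adjusted p = 0.93) on the second probe. Pair B was higher in the treated array on both probes, at 0.36 and 0.92, and pairs A and C were lower on both. At 22 h the means were 0.22 (SE 0.23, limma adjusted p = 0.61) and 0.35 (SE 0.32, adjusted p = 0.56). The latter, 1.27-fold, is uncertain, as no control and 2 of 3 treated arrays were well above background. All 3 pairs were above 0 on both probes at 22 h, but neither result passed the test. The ratio at 22 h minus that at 3 h was 0.59 (SE 0.33, limma adjusted p = 0.40) and 0.41 (SE 0.45, adjusted p = 0.70).

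In the tests of AS30, 0 of the 4 measured probes of these genes were called at 3 h and 0 at 22 h, with 1 of 4, the CD86 probe, under an unadjusted p of 0.05 each time by limma. Of all probes 24.4% and 22.9% were under it, a share near that of these 4. In the comparison of AS30 at 22 h with 3 h 0 were called by limma and 0 had an unadjusted p under 0.05, against 16.9% of all probes. Between the AS30 controls 2 of 4 were called, against 1.3% of all probes, and 3 had an unadjusted p under 0.05, against 14.9%. The count of 2 fell to 0 without 3 h control B and to 1 without any other 1 of the 6 control arrays. This comparison was added after the values had been seen.

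**Figure D4:**
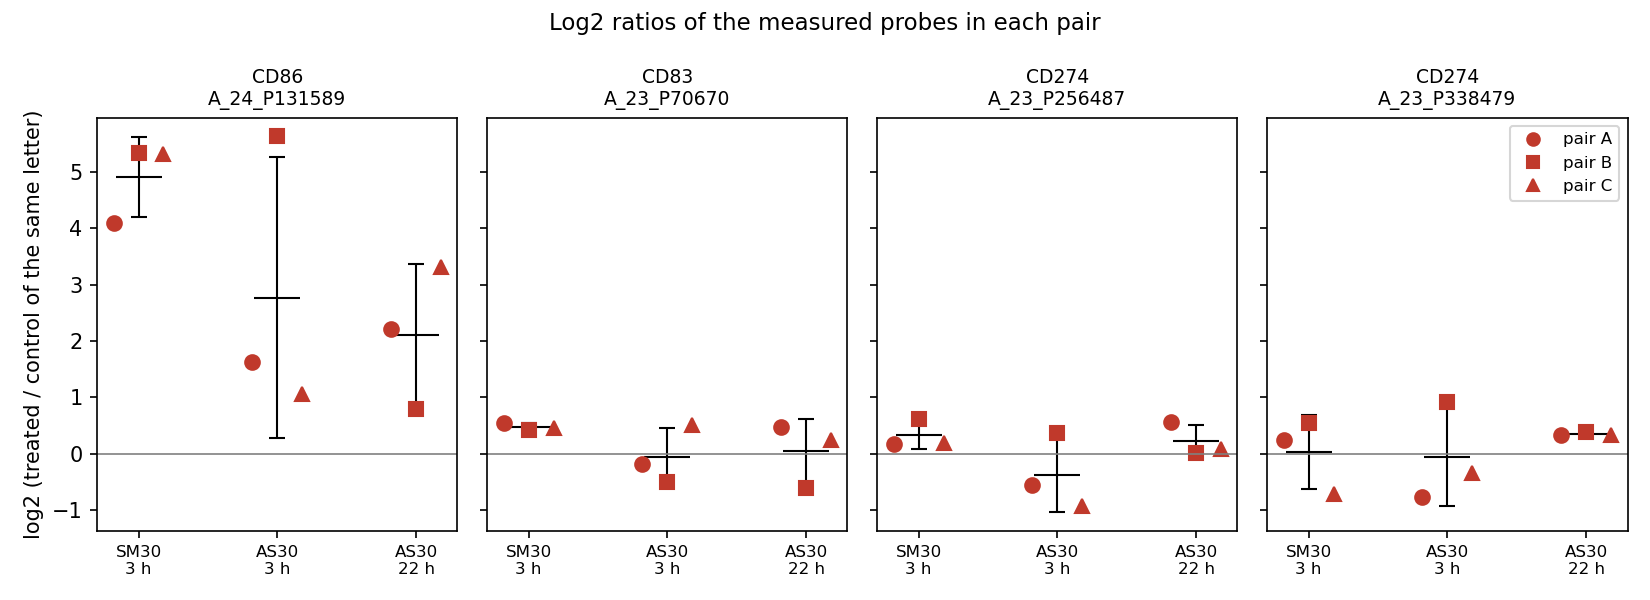
Log2 ratio of treated over control array of the same letter for the 4 measured probes, by treatment and recovery time, with the mean and SD of 3 pairs as black bars and a line at 0. All 9 ratios of CD86 lie above 0, from 0.79 to 5.63, and those of CD83 and CD274 between -0.92 and 0.92.

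The windows before the starts of CD83 and CD274 are shown because both genes differed in the same direction between the AS30 controls. Coordinates are again on GRCh38.p14, and capitals mark NF-kappaB matches in CD83 and a GAS match in CD274.
CD83 start 2, chr6:14117522-14117771, plus strand: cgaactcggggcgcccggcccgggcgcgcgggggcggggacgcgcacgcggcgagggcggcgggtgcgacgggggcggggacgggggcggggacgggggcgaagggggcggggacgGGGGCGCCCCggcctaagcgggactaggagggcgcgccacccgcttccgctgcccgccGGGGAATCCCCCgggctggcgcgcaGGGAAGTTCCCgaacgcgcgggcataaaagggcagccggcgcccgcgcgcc
CD274 start 1, chr9:5450292-5450541, plus strand: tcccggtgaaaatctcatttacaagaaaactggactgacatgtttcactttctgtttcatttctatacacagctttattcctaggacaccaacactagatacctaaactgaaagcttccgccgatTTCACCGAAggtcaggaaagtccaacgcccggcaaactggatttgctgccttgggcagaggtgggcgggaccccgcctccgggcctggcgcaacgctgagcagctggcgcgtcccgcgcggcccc

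The second CD83 window, with 83.2% G and C, held 3 separate stretches with NF-kappaB matches, and the first, with 34.8%, held none of the 3 motifs. The CD274 window, with 54.8% G and C, held 1 GAS match, 125 bases before the start, and no NF-kappaB match. The CD80 window held none. Nothing about a factor follows from these matches.

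PDCD1LG2, the second ligand of PD-1, was measured by probe A_23_P94412, which the files place over chr9:5539556-5547628 (hg18), a span of 8073 bp that is far longer than a 60 bp probe. It was well above background on a single array, AS30 control C at 3 h, with a processed signal of 182.3. Controls A and B of the same group had 12.9 and 29.9. The AS30 arrays at 3 h had 4.7 to 5, and the other groups 4.1 to 14.2, so that array stood alone. Normalized log2 means were 5.34 in the 3 h controls and 3.01 after AS30 at 3 h. Their ratio of 5.04-fold rests on control C, as controls A and B were not well above background either. It is no lower bound and was not tested.

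The wider pathway, from lists of 72 genes that are not among those above, moved at few points. The lists were chosen with earlier results of these data known, so their counts beside those of all probes are a description. Of 52 measured after SM30, 6 were called higher and 1 lower, with a median log2 ratio of 0.19 against -0.05 for all probes, of which 4.35% and 3.13% were called higher and lower. None of the 3 measured B7 family genes was called, with CD276 (0.20, limma adjusted p = 0.58) highest and ICOSLG (-0.52, 0.15) lowest. Of costimulatory ligands and receptors of the tumour necrosis factor families, CD40 and TNFRSF14 being receptors, none of the 5 measured was called. CD70 (0.43, limma adjusted p = 0.29) was highest of these, and TNFSF14 was measured in 1 pair only. Called higher were ICAM1, the adhesion ligand of LFA-1 (2.39, SE 0.43, limma adjusted p = 0.021), and 2 receptors known from T cells, HAVCR2 or TIM-3 (2.05, adjusted p = 0.0014) and TNFRSF9 or 4-1BB (1.81, 0.0028). The other 2 HAVCR2 probes were well above background on 1 and 5 arrays and could not be fitted.

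Of signalling genes, IFNGR2, a chain of the interferon gamma receptor (0.96, limma adjusted p = 0.0063), and the NF-kappaB subunits RELB (0.73, 0.032) and NFKB1 (0.72, 0.046) rose after SM30. None of 16 measured antigen presentation genes was called, with HLA-F highest (0.84, limma adjusted p = 0.058) and CIITA, the activator of class II genes, lowest (-0.67, 0.22). The count of 7 called genes was 3, 2 and 3 without SM30 pair A, B or C, and 1 with slide as a fixed block.

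After AS30 at 3 h, 3 of 52 were called higher and 1 lower, with a median of 0.16 against 0.01 for all probes, of which 1.5% and 1.01% were called. HAVCR2 (1.78, limma adjusted p = 0.0061), TNFRSF9 (1.53, 0.013) and IFNGR2 (0.71, 0.037) were higher, and VSIR, the B7 family protein VISTA, was lower (-0.56, 0.037). Without AS30 pair A, B or C the count of 4 was 2, 1 and 7, and it was 2 without any 1 of the SM30 pairs. With slide as a fixed block it was 0, and these treated arrays shared no slide with their controls. At 22 h HLA-DMA, which loads class II molecules, was the 1 gene called of 50 (0.65, limma adjusted p = 0.045; its second probe 0.91, 0.037), against 2.54% of all probes called higher, with a median of 0.32 against 0. That count was 0 without AS30 22 h pair A or C and 7 without pair B. It was 0 without any 1 of the SM30 pairs or AS30 3 h pair A, and 3 without AS30 3 h pair B or C.

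Between the AS30 controls, 0 of 50 genes were called higher and 4 lower at 22 h than at 3 h, against 0.504% and 0.795% of all probes. They were RELB (-1.41, limma adjusted p = 0.00054), NFKB1 (-1.13, 0.0082), IFNGR2 (-0.81, 0.0068) and ICAM1 (-3.64, 0.0023). ICAM1 was well above background on 0 of 3 controls at 22 h (normalized log2 means 7.21 at 3 h and 3.26 at 22 h). In the fit it was 12.4-fold higher at 3 h. With each 22 h control at its detection limit or own signal the ratio of means was 14.2-fold. As the 2 values differ, neither is given as a lower bound. These 4 genes are named because they were also called after SM30. Of 16 measured genes beside the 5 loci on their chromosomes, 0 were called higher after SM30 and 1 lower, against 4.35% and 3.13% of all probes. The 1 called was RIC1, near CD274 (-0.54, limma adjusted p = 0.033), and the highest was TMEM39A (0.31, 0.17). The 16 lie beside different loci, so their count does not describe the surroundings of CD86 alone.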

How the data were processed

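Agilent one-colour scanner files of 18 arrays were analysed. The authors deposited intensity columns on a linear scale, extracted per the file headers with Feature Extraction 10.5.1.1 on positions of build hg18, and also a table of 41093 lines of quantile-normalized intensity. Log2 processed signals were quantile-normalized over the 18 arrays, spots not positive and significant were set to missing, outlier spots were dropped and replicate spots averaged. Probes with over 33% missing were removed, leaving 28665. Ratios were taken of each treated array over the same-letter control, since the methods use the corresponding control without giving a letter. Limma 3.58.1 (R 4.3.3) modelled these 9 ratios in 3 classes (6 residual degrees of freedom), with Benjamini-Hochberg adjustment over all probes and a threshold of 0.05. The fit was tested on simulated data. Number of arrays limits the precision. A bound sets the brighter group against each dimmer array's detection limit or own signal. For ITGAX the own signals were used, so its bounds equal the plain ratios. Pathway genes were read from the probe of highest mean signal.

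The genes and lists were chosen with earlier results of these data known. Named pathway genes are those called with 3 ratios of 1 sign, and the highest and lowest of a list. The replicate letter entered through the ratio. Correlations of deviations within same-letter pairs ran from -0.09 to 0.48, and letters were not shown to pair the arrays. Symbols were matched through RefSeq for 23958 of 41000 probes. Alternatives numbered 19. Probe sequences were not analysed here. Single values of 1 signalling gene and 1 immune cell marker are not reported here.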

Additional observations from a re-analysis of the deposited data

How the results depend on the processing

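CD86 after SM30 (log2 ratio 4.91) lay between 4.26 and 5.32 in all 19 alternatives, the lowest with slide as a fixed block and 4.70 to 5.32 with an SM30 pair left out. Many of the 19 cannot change this mean. Leaving out an AS30 pair, dropping the pairing or taking the mean of the controls returns 4.91 by construction. Fits without pairing by letter (no replicate block) gave 0 calls of members after AS30 at 3 h or 22 h, and 10, 6 and 6 pathway genes after SM30, AS30 at 3 h and AS30 at 22 h. With the replicate block, 2 members were called between the controls. Members called after AS30 at 3 h numbered 1 with the mean of the 3 controls and 0 to 1 with a pair left out. Members called between controls numbered 1 with normexp, with all spots kept or with the well above background flag, 0 with slide as a fixed block and 0 to 1 with an array left out. Pathway genes after SM30 (7) numbered 11 with normexp, 3 with all spots kept, 11 with the well above background flag, 20 with the mean of the 3 controls, 1 and 13 with slide as a fixed and a random block, and 2 to 8 with a pair left out. Those after AS30 at 3 h (4) numbered 1 with all spots kept, 20 with the mean of controls, 0 and 13 with slide fixed and random, and 1 to 7 with a pair left out. Those at 22 h (1) numbered 3 with normexp, 2 with all spots kept, 21 with the mean of controls, 10 with slide random, and 0 to 7 with a pair left out. The mean of controls takes 1 denominator for 3 ratios, which removes the spread of the controls.

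Signs changed only in uncalled values. CD274 (A_23_P338479) after AS30 at 3 h was 0.08 with the well above background flag and -0.55 to 0.29 with a pair left out. With a pair left out CD83 was -0.35 to 0.15 at 3 h, -0.17 to 0.36 at 22 h and -0.11 to 0.43 for 22 h minus 3 h, and CD86 -1.52 to 0.76 for 22 h minus 3 h. The cause was not tested. Signal over background limits CD80, PDCD1LG2 and the second CD86 probe, which gave no ratio.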
